A study of Gallus gallus with 9 samples.

Results

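The genes described here encode translation initiation and elongation factors, with enzymes and repressors that act on them, as measured in the chick retina. They were taken as every chicken probe set on the array whose single platform gene symbol starts with EIF or EEF. That gave 97 probe sets for 55 genes, among 13008 named genes and 37693 chicken probe sets in all. RNA came from the amacrine cell layer, which holds interneurons of the inner retina, and was measured on Affymetrix Chicken Genome arrays. The minus lens group (3 arrays) came from chicks that wore a lens of -7 D, a stimulant of eye growth, over 1 eye for 24 h. The plus lens group (3 arrays) came from chicks with a lens of 7 D, which suppresses growth, for the same 24 h. The control group (3 arrays) came from untreated chicks of the same age, so the reference is other birds and not the fellow eye. Lights were on for 12 h daily (500 lux), the tissue was laser-captured from 10 µm sections, and 10 to 100 ng of its RNA was amplified in a two-cycle labelling. The age in days is not given in the sources used here. Each condition had 3 chicks and 3 separate samples, but no label ties an array to a chick, so the p-values describe sample-to-sample spread that could be partly technical.

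Protein synthesis starts when EIF2 brings the initiator tRNA to the small ribosomal subunit, EIF3 holds that complex together, and the EIF4 factors bind the cap of the mRNA and unwind its leader. EIF1, EIF1A and EIF5 check the start codon, and EIF5B joins the large subunit. EEF1A then delivers each aminoacyl-tRNA, the EEF1B subunits recharge EEF1A with GTP, and EEF2 moves the ribosome along. In neurons these steps are known points of control: kinases that phosphorylate EIF2 or EEF2 and proteins that sequester EIF4E slow translation without any change in the amount of the factors. The arrays measure mRNA and do not see such changes.

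Each value is the log2 of the authors' GCRMA intensity of 1 probe set. Testing needed log2 4 or more on 3 or more arrays of the 9, which held for 62 of the 97 translation factor probe sets (63.9%), covering 46 genes, against 34.4% of all chicken probe sets. Of the 62, 61 were at or above log2 4 on all 9 arrays, the exception being a dim EIF5B probe set. The genes with no tested probe set were EIF2AK2, EIF2AK3, EIF2B5, EIF4B, EIF4E1B, EIF4E3, EIF4G1, EIF5A2 and EEF2K. Their brightest probe sets averaged log2 2.36 (EIF4B) to 3.82 (EEF2K) over the 9 arrays, a range in which GCRMA compresses differences, so their RNA was not detectable by these probes rather than shown to be absent. Of the tested probe sets, 21 carry the suffix s or x, which marks probes shared with other transcripts, so signal of close relatives may be mixed there. The tested EEF1A1 probe set is among them, while those of EEF1A2, EIF1 and EIF1B carry neither suffix.

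Between 12721 and 12835 chicken probe sets per array were that bright. Minus lens replicate 3 stood apart, with a mean correlation of 0.985 with the other arrays against 0.990 to 0.992 for the rest, the highest hybridisation controls (log2 13.33 against 11.80 to 12.51) and the lowest array weight, 0.300. Of 16 amacrine cell markers on the array 15 were measured, all but TH. Their summed linear intensity was 56647 to 64960 on minus lens arrays, 61492 to 68968 on plus lens arrays and 64082 to 70197 on control arrays. With 1 probe set per gene, 4 of the 15 were higher and 11 lower in minus lens against control. Without overlap, 5 lay below the controls and 0 above, against 367 and 366 of all 7130 genes. In plus lens against control 7 were higher and 8 lower, and all overlapped. Other cells were present: the 8 bipolar cell markers measured summed to 4754 to 6862 on minus lens arrays, 3428 to 3748 on plus lens arrays and 3204 to 4050 on control arrays, so the minus lens arrays lay above the others. The 6 Müller glia markers measured of 10 on the array summed to 17206 to 30384 on minus lens, 16615 to 27136 on plus lens and 21909 to 31212 on control arrays, and overlapped. Ganglion cell markers (7 of 10 measured) summed to 900.5 to 1081 on minus lens, 719.4 to 1162 on plus lens and 795.3 to 1229 on control arrays, and also overlapped. Photoreceptor markers (2 of 9 measured) summed to 588.6 to 781.9 on minus lens, 496.1 to 559.6 on plus lens and 329.3 to 451.6 on control arrays, without overlap between any groups. That sum is nearly all GNB3, at mean log2 9.35 on minus lens, 8.98 on plus lens and 8.54 on control arrays. OPN1LW was near the filter (3.84, 4.37 and 3.38), and PDE6B, PDE6C, PDE6H, GNAT1, GNAT2, ARR3 and SAG lay below it. The order of the groups is thus that of 1 gene, and this sum does not show that photoreceptor RNA was present. Horizontal cell, microglial and vascular markers had 2 measured genes each with overlapping sums, and 0 of 3 red blood cell markers were measured. The part of these other cells in the results below was not tested, and in tissue fewer cells of a type and less RNA per cell cannot be told apart.

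No translation factor probe set among those tested passed after 24 h of lens wear of either sign. In limma, with Benjamini-Hochberg adjustment over all 12975 chicken probe sets tested, 0 of the 62 had an adjusted p under 0.05 for minus lens against control, where 0.00771% of all probe sets did. The count was also 0 for plus lens against control (background 0.00771%), for minus lens against plus lens (0.0154%) and for the test of any difference among the 3 groups (0.0154%). At an unadjusted p under 0.05 there were 2 members for minus lens against control (EIF4A2 and EIF3H), 3.23% of the 62 against 7.03% of all. For plus lens against control there were 0, against 1.95% of all. For minus lens against plus lens there were 3 (EIF3B, EIF4A2 and EIF4G2), 4.84% against 7.08% of all. For any difference among the 3 groups there were 2, where 5.29% of all probe sets passed. Arrays failed to overlap in minus lens against control for 4 members (10.0% of all probe sets), 1 higher (4.34%) and 3 lower (5.67%). In plus lens against control they did so for 2 (6.67%), with 2 higher (3.15%) and 0 lower (3.52%). In minus lens against plus lens there were 5 (9.68%), 1 higher (4.53%) and 4 lower (5.15%). Read against these backgrounds, the members' counts were fewer or about as many. The share of members exceeded its background for 2 higher in plus lens against control (3.23%) and 4 lower in minus lens against plus lens (6.45%).

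Each interval bounds the difference of its own probe set, on the arrays' common scale, and is not adjusted for the number of probe sets. Some of the 62 are dim, where GCRMA compresses differences, so their intervals bound compressed values. An EIF5B probe set, for example, read 5.24 on all 3 plus lens arrays. The 95% interval of the difference lay within a 2-fold change in either direction for 62 of 62 members in minus lens against control and for 62 of 62 in plus lens against control. It did so for 60 of 62 in minus lens against plus lens, where EIF3B (-1.07 to -0.19) and a dim probe set of EIF2B3 (-0.04 to 1.30) were the exceptions. Over all probe sets tested the shares were 83.0%, 87.9% and 83.0%. Within a 1.5-fold change the interval lay for 37, 46 and 42 members, or 59.7%, 74.2% and 67.7%, against 45.7%, 53.6% and 45.4% of all probe sets. The median SD within groups was 0.20 for translation factors, against 0.24 for all tested.

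Medians of the whole group were near 0. Minus lens against control gave a median log2 difference of 0.03 with 35 members higher (44.1% of all probe sets were) and 27 lower, against a median of -0.03 over all tested. Plus lens against control gave 0.03 with 37 higher (49.4% of all) and 25 lower, against a median of -0.002 over all. Minus lens against plus lens gave -0.01 with 27 higher (45.2% of all) and 35 lower, against -0.03. Both lens groups were set against the same 3 controls, so the first 2 comparisons are not independent.

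**Figure D1:**
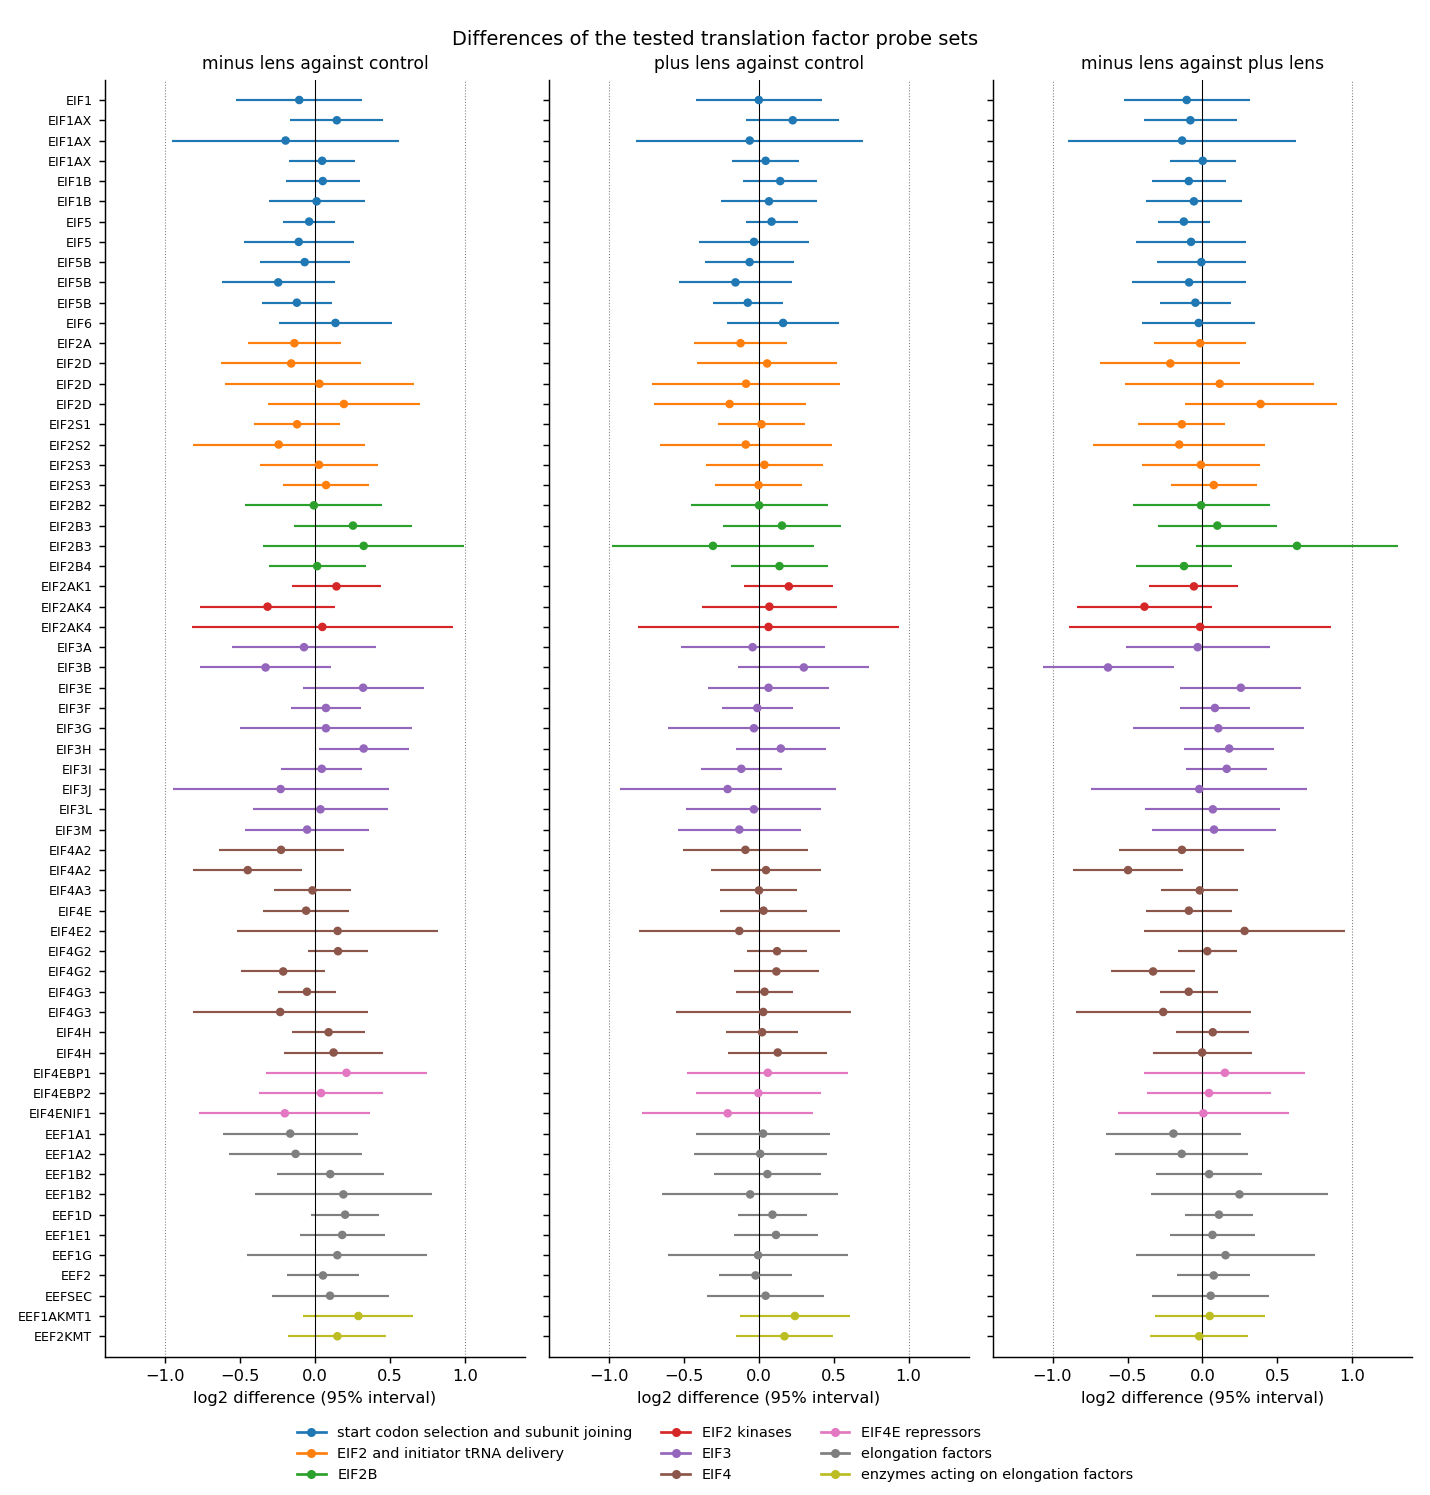
Log2 difference (points) and 95% interval (lines) of the 62 translation factor probe sets tested, in minus lens against control, plus lens against control and minus lens against plus lens. Rows are probe sets, the brightest of each gene on top, coloured by the complex they belong to, and dotted lines mark a 2-fold change. All intervals in the first 2 panels end inside the dotted lines, and in the third EIF3B and the dim EIF2B3 probe set cross them.

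Among the factors that select the start codon and join the subunits, 12 probe sets of 6 genes were tested and 0 passed in any comparison. EIF5, which makes EIF2 hydrolyse its GTP at the start codon, stood at log2 12.19, 12.07 and 12.11 on minus lens arrays, 12.23, 12.30 and 12.21 on plus lens arrays and 12.12, 12.13 and 12.24 on control arrays. The minus lens arrays all lay below the plus lens arrays, by a mean of 0.12 (95% interval -0.30 to 0.05, adjusted p = 0.757), while the controls overlapped both. A dimmer EIF5 probe set differed by -0.08 between the lenses, and its arrays overlapped. EIF1, which keeps the scanning ribosome open, averaged 10.42 ± 0.40 under the minus lens, 10.52 ± 0.06 under the plus lens and 10.52 ± 0.14 in controls (SD, n = 3 each). The wide spread under the minus lens came from replicate 3 at 9.97, against 10.73 and 10.56 on the other minus lens arrays, and without it the difference from control was 0.12 in place of -0.10. Its relative EIF1B differed by 0.05 (minus lens) and 0.14 (plus lens) from controls.

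EIF1AX, the X-linked form of EIF1A in mammals, was first by p in plus lens against control. Its brightest probe set stood at 9.86, 10.14 and 10.05 on plus lens arrays and at 9.53, 9.88 and 9.97 on controls, with overlap, a log2 difference of 0.23 (SE 0.14, adjusted p = 0.9998). Without control replicate 1, at 9.53, it was 0.095. On minus lens arrays it stood at 10.01, 9.91 and 9.89. A second EIF1AX probe set differed by -0.06 under the plus lens and -0.20 under the minus lens, so the probe sets did not share a direction. EIF6, which keeps the subunits apart until they are ready to join, had 0.14 under the minus lens and 0.16 under the plus lens. EIF5B, the GTPase of subunit joining, was read by 3 dim probe sets with -0.24 to -0.07 under the minus lens, and on the dimmest of them (4.09, 4.09 and 3.93 against 4.22, 4.16 and 4.09 in controls) the minus lens arrays all lay just below the controls. The mean of the 12 probe sets relative to controls was 0.04, 0.05 and -0.21 in the minus lens group and 0.004, 0.10 and -0.01 in the plus lens group, in the order of the replicates. Of the minus lens arrays only the third lay below the plus lens range, as did control replicates 1 and 3 (-0.04 and -0.011).

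The 3 subunits of EIF2 showed no difference that passed. EIF2S1, the alpha subunit that the stress kinases phosphorylate, stood at 9.77, 9.53 and 9.36 on minus lens arrays, 9.68, 9.76 and 9.64 on plus lens arrays and 9.56, 9.67 and 9.79 on control arrays. All 3 groups overlapped, and the differences from control were -0.12 (95% interval -0.41 to 0.17) under the minus lens and 0.02 (-0.27 to 0.31) under the plus lens. EIF2S2, the beta subunit, averaged 8.17 ± 0.55, 8.33 ± 0.21 and 8.42 ± 0.08 in minus lens, plus lens and control groups, with minus lens replicate 3 at 7.58 the lowest of the 9. The difference from control was -0.24 with that array and 0.057 without it. EIF2S3, the gamma subunit that binds the tRNA, averaged 11.33 ± 0.08 under the minus lens, 11.34 ± 0.33 under the plus lens and 11.31 ± 0.21 in controls. EIF2A and EIF2D, which can deliver initiator tRNA without EIF2, had differences of -0.14 and -0.16 under the minus lens and -0.12 and 0.06 under the plus lens at their brightest probe sets. A dim EIF2D probe set stood 0.39 higher under the minus lens than under the plus lens (SE 0.22, adjusted p = 0.744), and the arrays overlapped. In the same comparison the brightest EIF2D probe set had -0.21 and the remaining one 0.11, so the probe sets did not share a direction.

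EIF2B, the exchange factor that reloads EIF2 with GTP, was read through the subunits EIF2B2, EIF2B3 and EIF2B4. EIF2B3 was 12th by p in minus lens against control, with 9.01, 8.73 and 8.48 on minus lens arrays and 8.28, 8.77 and 8.41 on control arrays, which overlapped (log2 0.25, SE 0.17, adjusted p = 0.762, and 0.12 without minus lens replicate 1). A dimmer EIF2B3 probe set stood at 6.77, 6.21 and 7.38 on minus lens arrays against 6.29, 6.44 and 5.74 on plus lens arrays, where the difference of 0.63 was the widest upward one among the members. Its SE of 0.29 left it short of the threshold (adjusted p = 0.721), it was 0.33 without minus lens replicate 3, and the brighter probe set of the gene differed by 0.10 there. EIF2B2 had -0.007 and 0.003 against control under the minus and plus lens, and EIF2B4 had 0.02 and 0.14.

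Of the 4 kinases that phosphorylate EIF2S1 and so turn initiation down, the haem-regulated EIF2AK1 and the amino acid sensor EIF2AK4 (GCN2) were measured. EIF2AK4 stood at 7.26, 7.02 and 6.60 on minus lens arrays, 7.25, 7.53 and 7.27 on plus lens arrays and 7.07, 7.51 and 7.26 on control arrays. The minus lens group held the 2 lowest arrays, at 7.02 and 6.60, and overlapped both other groups. The difference was -0.39 against plus lens (SE 0.20, adjusted p = 0.726) and -0.32 against control (adjusted p = 0.759). Without minus lens replicate 3 these were -0.21 and -0.14, without control replicate 2 the difference from control was -0.20, and a dimmer EIF2AK4 probe set differed by -0.02 and 0.05. EIF2AK1 stood at 7.60 ± 0.15 under the minus lens, 7.65 ± 0.05 under the plus lens and 7.45 ± 0.14 in controls, where plus lens against control gave 0.20 (SE 0.13, adjusted p = 0.9998).

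EIF3 is the largest initiation factor, and 10 of its subunits were measured, each by 1 tested probe set. EIF3H was the 1 member whose minus lens arrays (9.51, 9.74 and 9.69) all lay above the controls (9.30, 9.44 and 9.23), where 4.34% of all probe sets did so. Its plus lens arrays stood at 9.40, 9.70 and 9.31 and overlapped the minus lens and control arrays. The minus lens difference was 0.33 (95% interval 0.03 to 0.62, adjusted p = 0.683), and the plus lens difference was 0.15 (-0.15 to 0.45). Leaving out any 1 array kept the minus lens difference between 0.28 and 0.39.

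EIF3E had a difference of similar size. It stood at 11.09, 11.20 and 10.91 on minus lens arrays, 10.91, 10.98 and 10.54 on plus lens arrays and 10.56, 11.09 and 10.57 on control arrays. Control replicate 2 lay among the minus lens arrays, and the difference of 0.32 (SE 0.18) had an adjusted p of 0.735 and was 0.50 without that control array. The other subunits had smaller or negative values. Against control under the minus lens EIF3F had 0.07, EIF3G 0.07, EIF3I 0.05, EIF3L 0.04, EIF3M -0.05, EIF3A -0.07 and EIF3J -0.23. EIF3I was the 1 member with all minus lens arrays (9.74, 9.95 and 9.74) above all plus lens arrays (9.64, 9.63 and 9.67), by 0.16 (adjusted p = 0.784).

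EIF3B, a scaffold subunit, had the most separated groups of the complex. Its arrays read 5.71, 5.72 and 5.08 under the minus lens, 5.94, 6.27 and 6.18 under the plus lens and 5.82, 5.84 and 5.82 in controls. The 3 groups did not overlap: every minus lens array lay below every control array and every plus lens array above them. Taken singly, minus lens arrays lay below all controls for 5.67% of all probe sets tested, and plus lens arrays above them for 3.15%. The share of all probe sets with both was not computed. The EIF3B difference was -0.63 for minus lens against plus lens (SE 0.19, adjusted p = 0.664), the smallest p of any member in any comparison. It was -0.33 for minus lens against control (adjusted p = 0.738) and 0.30 for plus lens against control (adjusted p = 0.9998). Minus lens replicate 3 set much of the first 2 values: without it, minus lens against plus lens was -0.42 and minus lens against control -0.12. This EIF3B probe set was dim, with a mean of 5.82 over the 9 arrays, against a median level of 6.87 for all probe sets tested. It dropped out when the filter was raised to log2 6. A second EIF3B probe set lay below the filter and gave no check of this pattern.

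**Figure D2:**
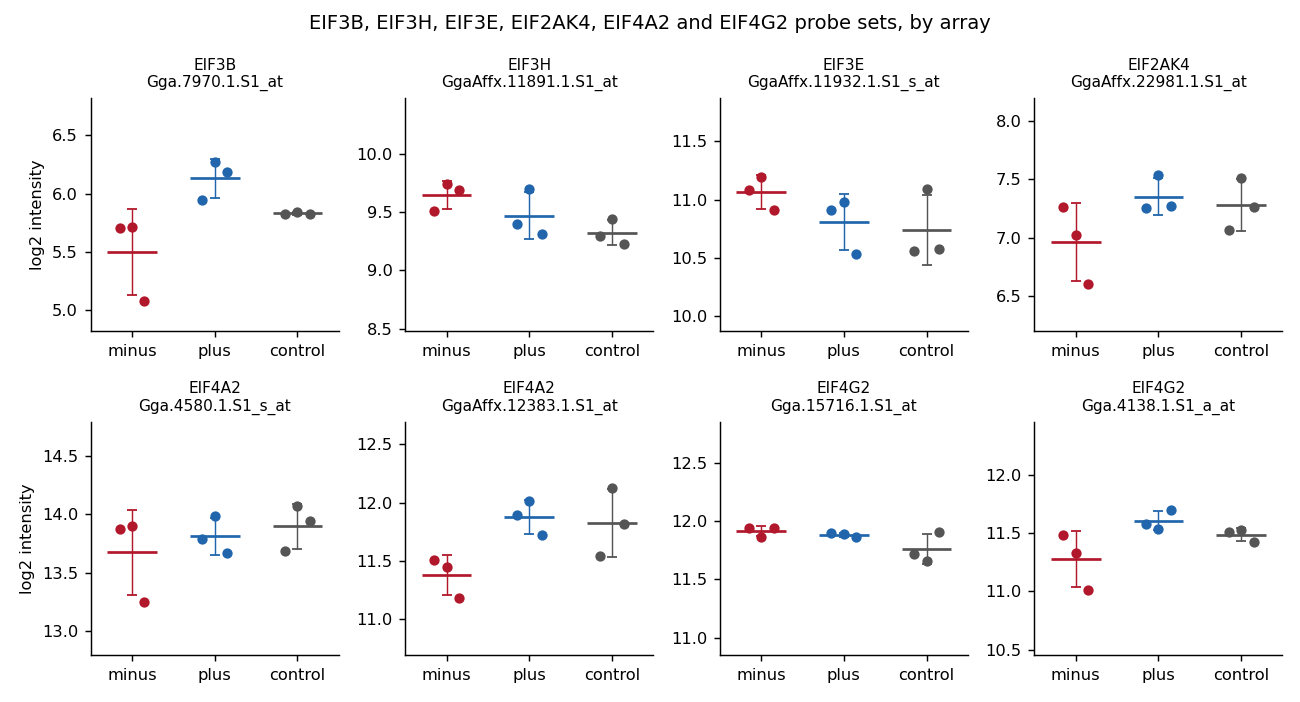
Log2 intensity on each array (points), group mean (bar) and SD (whiskers, n = 3) for 8 probe sets of EIF3B, EIF3H, EIF3E, EIF2AK4, EIF4A2 and EIF4G2, with the minus lens, plus lens and control groups from left to right. Every vertical axis spans 2 log2 units, and most groups overlap. The groups of EIF3B (5.08 to 6.27) are separate in all pairs, and the minus lens arrays of the dimmer EIF4A2 probe set (11.18 to 11.51) lie below both other groups.

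In the EIF4 family, the RNA helicase EIF4A2, a form of EIF4A abundant in mammalian brain, had the smallest p in minus lens against control. The probe set concerned read 11.51, 11.45 and 11.18 on minus lens arrays, 11.89, 12.01 and 11.72 on plus lens arrays and 11.54, 12.12 and 11.82 on control arrays. The minus lens arrays all lay below both other groups, by 0.45 against control (SE 0.16, adjusted p = 0.683) and by 0.50 against plus lens (SE 0.16, adjusted p = 0.669). Taken singly, minus lens arrays lay below all controls for 5.67% of all probe sets tested, and below all plus lens arrays for 5.15%. The share below both groups was not computed. Control replicate 1 was close to the highest minus lens array, and the difference from control was -0.30 without control replicate 2. The brighter EIF4A2 probe set, at 13.87, 13.90 and 13.25 on minus lens arrays, 13.79, 13.98 and 13.66 on plus lens arrays and 13.69, 14.07 and 13.94 on control arrays, overlapped between all groups and differed by -0.23 from control (95% interval -0.64 to 0.19).

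EIF4G2, a relative of the EIF4G scaffold that supports cap-independent initiation, had 2 bright probe sets with opposite signs in minus lens against control. The brighter read 11.94, 11.86 and 11.94 on minus lens arrays, 11.90, 11.89 and 11.86 on plus lens arrays and 11.72, 11.66 and 11.91 on control arrays, a difference of 0.15 from control for the minus lens and 0.12 for the plus lens. The other read 11.48, 11.33 and 11.01 under the minus lens, 11.58, 11.54 and 11.69 under the plus lens and 11.51, 11.53 and 11.42 in controls. There the minus lens arrays lay below all plus lens arrays, by 0.33 (SE 0.12, adjusted p = 0.689), and the plus lens arrays lay above all controls, by 0.12 (adjusted p = 0.9998). Without minus lens replicate 3 the first of these was -0.20, and the difference from control of this probe set was -0.08 in place of -0.21.

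Other factors of the cap-binding step had small differences. EIF4E, the cap-binding protein itself, stood at 7.35 ± 0.05 under the minus lens, 7.44 ± 0.14 under the plus lens and 7.41 ± 0.13 in controls, which bounds its minus lens difference from control to -0.35 to 0.23. EIF4G3, a scaffold that bridges EIF4E and EIF3, stood at 10.17 ± 0.06 under the minus lens, 10.26 ± 0.05 under the plus lens and 10.22 ± 0.02 in controls, with bounds of -0.25 to 0.14. A dimmer EIF4G3 probe set was less precise, with -0.23 against control under the minus lens and bounds of -0.82 to 0.35. EIF4A3, a helicase of the exon junction complex rather than of initiation, had -0.02 and 0.002 against control under the minus and plus lens, and the helicase cofactor EIF4H had 0.09 and 0.02. EIF4E2, a cap-binding repressor, varied more within groups (6.31 ± 0.40 under the minus lens, 6.03 ± 0.38 under the plus lens and 6.16 ± 0.42 in controls).

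Proteins that hold EIF4E away from the scaffold include EIF4EBP1 and EIF4EBP2, which the kinase mTOR inactivates, and the transporter EIF4ENIF1. EIF4EBP1 read 7.63, 7.24 and 6.58 on minus lens arrays, 6.95, 7.02 and 7.04 on plus lens arrays and 6.85, 6.99 and 6.99 on control arrays. Minus lens replicates 1 and 2 were the highest of the 9 arrays and replicate 3 the lowest, so the mean difference of 0.21 from control had a 95% interval of -0.33 to 0.75, and it was -0.03 without replicate 1 and 0.50 without replicate 3. EIF4EBP2 had 0.04 and -0.002 against control under the minus and plus lens, and EIF4ENIF1 -0.20 and -0.21.

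Of the elongation factors, 9 probe sets of 8 genes were tested, and 0 passed. In minus lens against control 7 had a higher mean and 2 a lower one, with a median of 0.10 and a range of -0.16 to 0.20. EEF2, the translocase, stood at 12.39, 12.46 and 12.28 on minus lens arrays, 12.33, 12.40 and 12.17 on plus lens arrays and 12.28, 12.50 and 12.19 on control arrays. Its groups overlapped throughout, and the difference from control was 0.05 (95% interval -0.19 to 0.30) under the minus lens and -0.02 (-0.26 to 0.22) under the plus lens. EEF1D, an exchange factor subunit for EEF1A, had the third smallest p in minus lens against control. It read 12.38, 12.41 and 12.22 on minus lens arrays, 12.22, 12.34 and 12.12 on plus lens arrays and 12.06, 12.27 and 12.07 on control arrays. The third minus lens replicate lay below control replicate 2, and the difference was 0.20 (SE 0.10, adjusted p = 0.725).

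The other subunits of that exchange complex had small positive values against control under the minus lens: EEF1B2 had 0.10 and EEF1G 0.15. EEF1E1, better known as a scaffold of the aminoacyl-tRNA synthetase complex, had 0.18, or 0.086 without control replicate 3. Under the plus lens the 3 had 0.06, -0.004 and 0.12 in that order. EEFSEC, which delivers selenocysteine, had 0.10 and 0.05.

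Neither form of EEF1A passed. EEF1A2, the form of mature neurons and muscle, read 13.55, 13.36 and 12.74 on minus lens arrays, 13.37, 13.48 and 13.22 on plus lens arrays and 13.33, 13.52 and 13.19 on control arrays. Of the 9 arrays minus lens replicate 3 was the lowest and replicate 1 the highest, and the difference of -0.13 from control had an interval of -0.57 to 0.31. Without replicate 3 its sign turned, to 0.11. EEF1A1 read 12.18, 12.52 and 11.90 on minus lens arrays, 12.31, 12.67 and 12.20 on plus lens arrays and 12.09, 12.60 and 12.41 on control arrays (-0.16 for minus lens against control, interval -0.61 to 0.28, and -0.015 without minus lens replicate 3).

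EEF1A1 is also read by 3 control probe sets of the array, placed at its 3' end, middle and 5' end, which are not among the 97. The set at the 3' end read 13.16, 13.31 and 12.84 on minus lens arrays, 13.11, 13.52 and 13.07 on plus lens arrays and 12.93, 13.38 and 13.31 on controls. The mean differences from control were -0.10 at the 3' end, -0.44 in the middle and -0.50 at the 5' end for the minus lens, and 0.02, -0.08 and 0.18 for the plus lens. The gap between 3' and 5' end, which widens as RNA degrades or amplification falls short, was 6.12, 5.79 and 6.78 on minus lens arrays, 6.03, 5.43 and 5.57 on plus lens arrays and 5.68, 6.19 and 5.64 on control arrays. The widest gap was that of minus lens replicate 3, and the groups overlapped.

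**Figure D3:**
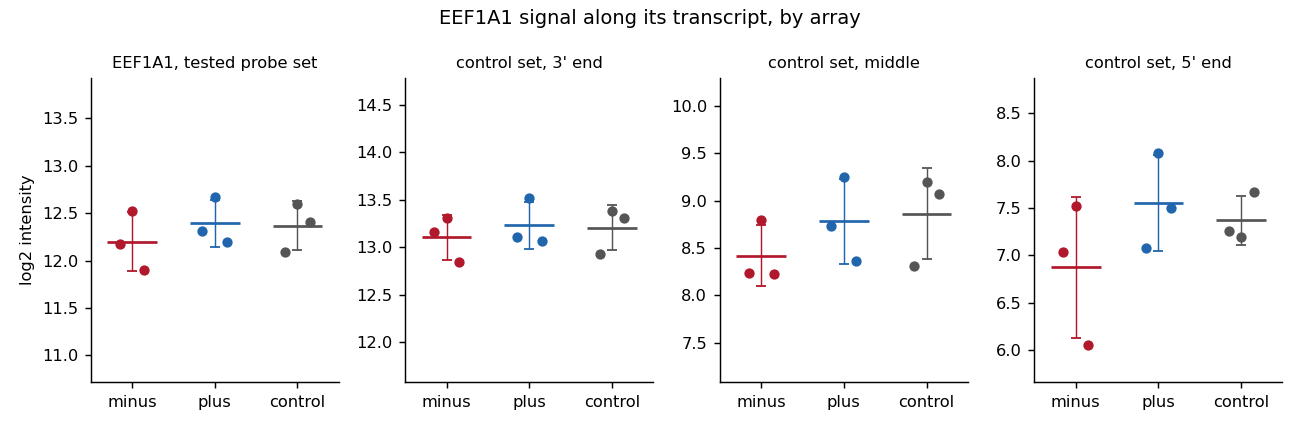
Log2 intensity of EEF1A1 on each array (points) with group mean (bar) and SD (whiskers, n = 3), for the tested probe set and for the control probe sets at the 3' end, middle and 5' end, with minus lens, plus lens and control groups from left to right. All vertical axes span the same number of log2 units. Minus lens replicate 3 is the lowest array in all 4 panels, at 6.06 for the 5' end.

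The enzymes that modify elongation factors had few measured members. EEF1AKMT1, a lysine methyltransferase of EEF1A, was dim, at 4.73 ± 0.11 under the minus lens, 4.69 ± 0.01 under the plus lens and 4.44 ± 0.32 in controls, with differences of 0.29 and 0.24 and overlap of the arrays. Without control replicate 2 these were 0.14 and 0.096. EEF2KMT, which methylates EEF2, had 0.15 under the minus lens and 0.17 under the plus lens. EEF2K, the kinase that halts elongation by phosphorylating EEF2, lay below the filter.

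The mean level of a complex also differed between replicates of 1 group. Set against the average control, EIF3 averaged 0.08, 0.16 and -0.18 for minus lens replicates 1, 2 and 3, -0.05, 0.17 and -0.14 for plus lens replicates and -0.13, 0.18 and -0.05 for controls. Replicate 2 was thus the highest array of each group for EIF3, and likewise for the elongation factors (0.17, 0.15 and 0.20 on replicate 2 of the minus lens, plus lens and control groups). The lowest of the 9 arrays was minus lens replicate 3 for 21 of the 62 members (33.9%), against 29.4% of all probe sets tested. Over all members the array means were 0.10, 0.04 and -0.13 on minus lens arrays, 0.005, 0.10 and -0.05 on plus lens arrays and -0.07, 0.08 and -0.007 on controls, and the groups overlapped.

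**Figure D4:**
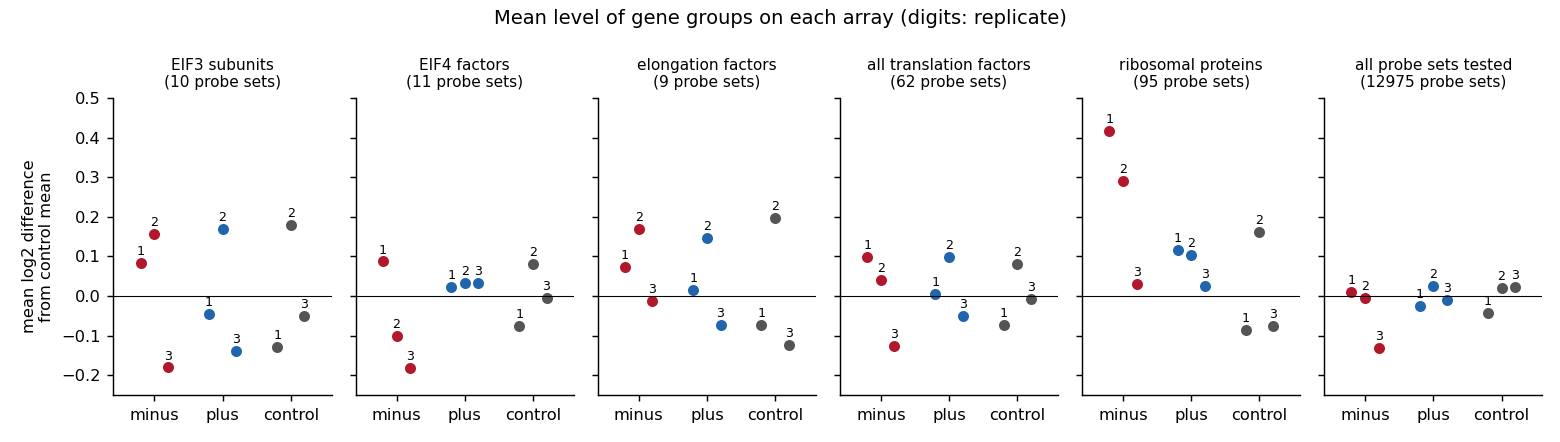
Mean log2 difference from the control mean on each array, with the replicate number beside each point, for the EIF3 subunits, EIF4 factors, elongation factors, all translation factors, ribosomal proteins and all probe sets tested. Minus lens, plus lens and control groups run from left to right. For EIF3 and elongation factors replicate 2 is highest in each group. For the ribosomal proteins minus lens replicates 1 and 2 (0.42 and 0.29) lie above all other arrays.

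Ribosomal protein genes, which are regulated with many translation factors in mammals, were set beside them on the same arrays. Their 95 tested probe sets averaged 0.42, 0.29 and 0.03 on minus lens arrays, 0.12, 0.10 and 0.03 on plus lens arrays and -0.09, 0.16 and -0.08 on controls. With 1 probe set per gene, 58 of 63 ribosomal protein genes and 26 of 46 translation factor genes had a higher mean in minus lens against control, with medians of 0.34 and 0.04. Over all 7130 genes 3237 had a higher mean, with a median of -0.03. In plus lens against control the medians were 0.10 and 0.03. In limma 0 genes of either list passed. At an unadjusted p under 0.05, 31 ribosomal protein genes and 1 translation factor gene were higher in minus lens against control, among 259 of all 7130 genes. The difference between the lists was not tested.

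The other steps of the pathway were read with 1 probe set per gene, and 0 of their genes passed in any comparison. Genes of these lists are named for having the smallest p in their list, so they do not stand for the list. Of the release and ribosome recycling factors 7 were measured, with 2 higher and 5 lower in minus lens against control (median -0.06) and 3 higher and 4 lower in plus lens against control (median -0.02). PELO, which rescues stalled ribosomes, had -0.34 under the minus lens (SE 0.23) and ABCE1, which splits ribosomes after termination, had 0.13. Poly(A)-binding proteins and their partners (6 genes) had medians of 0.03 and 0.03, with LARP4B at -0.24 under the minus lens and -0.50 under the plus lens (SE 0.21, adjusted p = 0.9997). Mitochondrial translation factors (7 genes) had medians of -0.02 and -0.06, with GUF1, a mitochondrial GTPase of elongation, at -0.82 (SE 0.33, adjusted p = 0.667) and -0.44.

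Of 23 genes on the array for the mTOR pathway and kinases that act on initiation, 9 were measured. In both comparisons 2 were higher and 7 lower, with medians of -0.07 and -0.06. RICTOR, the defining subunit of mTOR complex 2, averaged 8.67 on minus lens arrays, 9.36 on plus lens arrays and 9.42 on controls (-0.75 for minus lens against control, SE 0.19, adjusted p = 0.605). PDPK1, a kinase that activates AKT and S6 kinase, averaged 10.49 on minus lens arrays, 10.09 on plus lens arrays and 10.13 on controls (0.36, SE 0.11, adjusted p = 0.650). TSC1, which restrains mTOR complex 1, had -0.36 under the minus lens and -0.09 under the plus lens.

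Partners of the EIF2 kinases in the integrated stress response (8 genes) had medians of 0.08 and 0.02. ATF4, the transcription factor whose translation rises when EIF2 is phosphorylated, averaged 10.88 on minus lens and 10.99 on plus lens arrays, a difference of -0.11. ASNS, a target of ATF4 that makes asparagine, averaged 7.42 on minus lens arrays, 6.44 on plus lens arrays and 6.68 on controls, with 0.98 for minus lens against plus lens (SE 0.22, adjusted p = 0.581) and 0.74 for minus lens against control (SE 0.22, adjusted p = 0.650). Cytosolic aminoacyl-tRNA synthetases and their scaffolds (19 genes) had medians of -0.03 and 0.02. The scaffolds AIMP1 and AIMP2, partners of EEF1E1 in the same complex, had 0.37 and 0.32 under the minus lens (adjusted p = 0.667 and 0.671), and TARS, the threonine enzyme, had -0.49. Ribosome assembly factors (12 genes) had medians of 0.08 and 0.07, with NOB1, which matures the small subunit, at 0.42 (SE 0.12, adjusted p = 0.650) and 0.29.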

How the data were processed

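RNA of the captured amacrine cell layer was measured on 9 arrays, grouped by sample title, since the source field of minus lens samples mentions plus as well as minus. The authors deposited 1 linear intensity per probe set and array, made with GCRMA per the submitters' processing notes, in a version that is not given in the sources used here. That the scale is linear was read from the values. GCRMA corrects background, equalises the arrays and compresses dim values, so differences are relative to the other transcripts.

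Log2 was taken with no pseudocount, and 842 control and non-chicken probe sets were left out. Of the rest, 12975 were at log2 4 or more on 3 or more arrays. They were fitted in limma 3.58.1 under R 4.3.3 (lmFit, eBayes with trend, 9 arrays, 3 groups, two-sided, Benjamini-Hochberg over all tested, threshold 0.05), with 6 residual and 2.64 prior degrees of freedom. Symbols are those of the platform annotation, of which 93 member probe sets were found by Entrez number in RefSeq's GRCg7b gene table with 0 changed. That table has 60 genes with such symbols, 55 of them among the members. The others, EIF2B1, EIF3D, EIF3K, EIF4EBP3 and EIF5A, had no member probe set and were not analysed here. Other pathway lists used each gene's brightest probe set.

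Named genes were the 12 members with the smallest p in each comparison, the brightest probe set of each listed factor, and genes of each other list. The latter were taken from the up to 3 genes with the smallest p in each comparison. Members, lists and alternatives were chosen with earlier results of these data known. The fit was tested on simulated data for minus lens against control, with 200 of 12975 probe sets changed: 51.6% were recovered at log2 1, 89.5% at log2 2 and 0.1% at log2 0.5. Arrays have no read depth, and their number limits the precision (median SE of a difference 0.17 for members, 0.19 for all). No arrays were identical (highest correlation 0.994).

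The alternatives were other filters, quantile normalisation or median centring, a pseudocount of 16, other variance models, array weights, only the 6 arrays compared, the replicate number as a block, 1 probe set per gene and leaving out each array.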

Additional observations from a re-analysis of the deposited data

Results flagged for a closer look

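EIF3B had opposite signs under the lenses: every minus lens array lay below and every plus lens array above the controls. Its log2 difference from control was -0.33 under the minus lens and 0.30 under the plus lens. Both values used the same 3 controls, and the share of all probe sets with this order was not computed. The test of the difference itself, minus lens against plus lens, did not pass in limma (-0.63, adjusted p = 0.664). The EIF3B controls lay close together (SD 0.011, n = 3), and without minus lens replicate 3 the minus lens difference from control was -0.12. The probe set was dim, with a mean of log2 5.82 over all arrays, and dropped out under a filter at log2 6.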

How the results depend on the processing

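The count of translation factor probe sets past the threshold stayed at 0 in limma in each comparison under all 20 alternatives. The smallest adjusted p there was 0.357, for EIF4G2 in minus lens against plus lens. In the test of any group the count stayed at 0 under the 19 alternatives that keep all 3 groups (smallest adjusted p = 0.593). At an unadjusted p under 0.05 the count ran from 1 to 4 for minus lens against control, 0 to 2 for plus lens against control and 1 to 5 for minus lens against plus lens. The median difference ran from -0.02 to 0.07, -0.02 to 0.07 and -0.06 to 0.06 in these comparisons, within the spread of the array means (SD 0.09), so its sign is not resolved. The 36 differences of the members with the smallest p kept their sign in 677 of 677 values. These were picked by p from the same data, and several alternatives leave a log2 difference unchanged, so a stable sign was largely set in advance. The 110 other named differences had the other sign in 182 of 2086. Without minus lens replicate 3, minus lens against control gave -0.12 for EIF3B, -0.14 for EIF2AK4 and -0.08 for EIF4G2. The sign turned at the brightest probe sets of EIF1, EIF2S2, EEF1A2, EIF2B2, EIF3A, EIF3M and EIF4A3. The dim EIF2B3 probe set gave 0.33 in minus lens against plus lens without that array.

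The replicate number as a block gave 4 members at an unadjusted p under 0.05 for minus lens against control, against 2 without it, and 0 past the threshold. Of 9 same-numbered pairs, 2 had correlated deviations above 0.1 (-0.06 to 0.16, against 0.14 for the highest other pair). The pairs of replicate 2 had 0.12, 0.16 and 0.05, and 4 of 9 arrays correlated best with their own number. With so few arrays this check could not settle whether the numbers pair the samples. With 3 arrays a group, the simulated test recovered 0.1% of changes of log2 0.5 in minus lens against control, so differences of that size are mostly missed. Those changes were placed at random among all probe sets tested, and the rate for the members by themselves was not computed. The simulated noise was normal, independent between probe sets and of the same SD on every array. It thus held no outlying array such as minus lens replicate 3, and the rates need not hold for these data.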
